A study of Mus musculus with 6 samples.

Results

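The 36 genes described here drive DNA replication in S phase (14 genes) and mitosis (22 genes), and they were followed in hepatic stellate cells of the mouse, pericytes that store vitamin A in the liver. They were chosen by name. A gene was taken from a probe set to which the platform annotation gives that symbol alone, and where a gene had several such probe sets the one with the highest mean over the 6 arrays was used. This gave 34 measured genes, 13 for replication and 21 for mitosis, out of 22180 genes on the array. Rrm2 had a further probe set, which read a mean log2 signal of 2.56. Ccnb1, which encodes cyclin B1, had no such probe set, and Ccne2, which encodes cyclin E2, was named only on a probe set shared with Ints8. Of the 34 genes, 30 passed the filter that removed the 30% dimmest genes (a mean log2 signal under 4.70), and 15526 genes passed in all. All 13 replication genes and 17 of 21 mitosis genes passed, and Birc5, Bub1, Cdc25c and Cenpf were dim.

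Primary cells from 5 mice were pooled for each array, and each of the 6 groups had 1 array. Young mice were 8 to 11 weeks old and old mice 6 to 9 months old. For each age, quiescent cells had been plated for 12 h, and cells activated by more than 20 days in culture had received vehicle or C-82 at 10 µM in dimethyl sulfoxide. C-82, into which PRI-724 is converted, keeps beta-catenin from its coactivator CBP, and cells that received it are called PRI-724 below. Neither a mouse strain nor how long C-82 was applied is given in the labels. Single arrays carry no spread within a group. The tests with limma set a difference between states (n = 2 pairs, 1 for each age) against a moderated spread. It combines the gene's own disagreement of the ages over all 3 states with a trend fitted over all genes. The trend has the larger weight (7.76 prior beside 2 residual degrees of freedom). A standard error below is therefore not the spread of a gene's own 2 pairs. An age-specific response could not be tested.

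Replication begins when the MCM helicase, a ring of 6 related subunits, is loaded on DNA in G1 and fired in S phase, and when ribonucleotide reductase and thymidylate synthase supply the building blocks. Cyclin A and cyclin B with the kinase Cdk1 then bring the cell into mitosis, where kinases, motors and bundling proteins build the spindle and the cleavage furrow. E2F factors switch on many replication genes, and a complex that reads the CHR element controls many mitosis genes, so both groups are low in resting cells and rise one after the other in dividing ones. Stellate cells are resting in healthy liver and can enter the cycle as they turn into myofibroblasts.

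The young PRI-724 array stood apart, with an interquartile range of 1.71 log2 units over tested genes beside 2.11 to 2.43 on the other 5. Its median difference to the young vehicle array over all tested genes was -0.14, and that between the old and the young PRI-724 arrays was 0.17. After cyclic loess these were 0.0025 and 0.0036. Lists of markers of other cells differed in level between arrays, whose medians over tested genes were 6.19 to 6.52. The mean log2 signal of 12 macrophage and Kupffer cell markers was 8.26 to 9.29 on the 4 quiescent and vehicle arrays and 6.01 and 6.20 on the PRI-724 arrays, where Vsig4 of that list read 3.60 and 4.35, below the filter's limit. That of 10 sinusoidal endothelial markers was 8.68 to 9.91 beside 6.15 and 7.09, and that of 8 hepatocyte markers ranged from 5.08 in young vehicle cells to 9.80 in old quiescent cells. The 11 stellate cell markers had means of 7.89 to 8.69, but single members moved in opposite directions. From quiescent to vehicle cells 5 of the 11 rose and 1, Rgs5, fell at an adjusted p under 0.05 (limma). Of all tested genes 4.61% rose and 1.26% fell. In such bulk samples, fewer cells of a type and less RNA in each cell cannot be told apart.

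**Figure D1:**
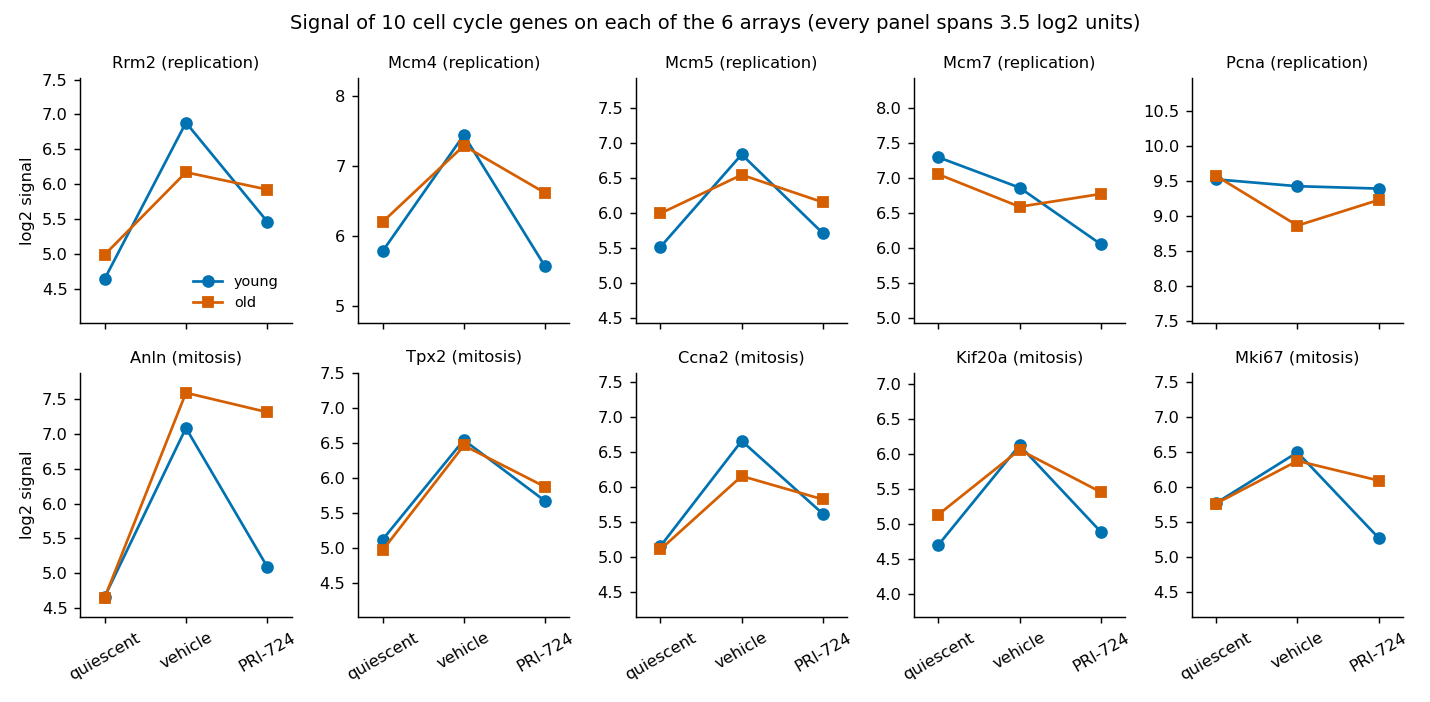
Log2 signal (y axis) of 5 replication genes (top) and 5 mitosis genes (bottom) in quiescent, vehicle-treated and PRI-724-treated cells (x axis), 1 array per point, with young cells as circles and old cells as squares. Every panel spans the same range of 3.5 log2 units but starts at a different level; vehicle is the highest state at both ages for 8 of the genes and not for Mcm7 or Pcna.

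Activation in culture went with higher levels of a subset of these genes. In the comparison of vehicle-treated with quiescent cells, 6 of the 30 tested genes rose and 0 fell at an adjusted p under 0.05 (limma, Benjamini-Hochberg over all tested genes), where 4.61% of all tested genes rose and 1.26% fell. The 6 were Anln, Tpx2, Ccna2 and Kif20a of the mitosis genes and Rrm2 and Mcm4 of the replication genes. At an unadjusted p under 0.05, 18 of the 30 were higher beside 15.7% of all genes, and 0 were lower beside 6.73%. A gain of at least 2-fold was seen for 12 of 30 genes in the young pair, where 10.2% of all genes gained as much, and for 8 of 30 in the old pair, beside 6.09%. Of the 34 measured genes, 30 were higher in both pairs, beside 40.7% of all tested genes, and Pcna and Mcm7 were lower in both.

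Among the mitosis genes, 3 genes of the spindle and of cytokinesis rose. Anln encodes anillin, the scaffold of the cleavage furrow, and read 4.67 in young and 4.65 in old quiescent cells, 7.08 and 7.58 with vehicle, and 5.10 and 7.31 with PRI-724. It rose by 2.67 ± 0.45 log2 units on activation (SE, n = 2 pairs; 6.37-fold; adjusted p = 0.0115, limma). The quiescent and vehicle arrays were far apart at both ages, while young PRI-724 lay near the quiescent level and old PRI-724 near the vehicle level. Tpx2 encodes the protein that activates Aurora A on the spindle, and read 5.11 and 4.96, then 6.54 and 6.46, then 5.67 and 5.87 in the same order of state and age. It rose by 1.46 ± 0.25 (2.76-fold; adjusted p = 0.0122), and its ages differed little in every state. Kif20a, a kinesin of the central spindle, read 4.70 and 5.13, then 6.12 and 6.06, then 4.89 and 5.46, and rose by 1.18 ± 0.26 (adjusted p = 0.0317). All 6 spindle and cytokinesis genes were higher in both pairs, and under the 2 other scalings tried as well. Prc1, which bundles the microtubules of the central spindle, stood at 1.21 ± 0.32 (adjusted p = 0.0564), Kif11 at 0.82 ± 0.26 and Nusap1 at 0.47 ± 0.25.

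Ccna2, which encodes cyclin A2, the cyclin of S phase and G2, read 5.15 and 5.11 in quiescent, 6.66 and 6.16 in vehicle and 5.61 and 5.82 in PRI-724 cells, and rose by 1.28 ± 0.27 (2.43-fold; adjusted p = 0.0251, limma). Cdk1, its mitotic kinase partner, read 5.04 and 5.44, then 6.38 and 6.23, then 4.71 and 5.76. Its activation difference of 1.06 ± 0.31 had an adjusted p of 0.0744, although both vehicle arrays lay above all other arrays. Mki67, which encodes the proliferation antigen Ki-67 that coats mitotic chromosomes, read 5.77 and 5.76, then 6.49 and 6.37, then 5.27 and 6.09, a difference of 0.67 ± 0.30 (adjusted p = 0.219). Top2a, the topoisomerase that untangles sister chromatids, read 4.60 and 4.33, then 5.59 and 5.34, then 4.35 and 5.37, a 2.01-fold difference (adjusted p = 0.113). Here the old PRI-724 array was level with the old vehicle array and the young one was not. Plk1, the polo kinase, read 5.85 and 5.85, then 6.45 and 6.53, then 6.07 and 6.09, a difference of 0.64 ± 0.25 (adjusted p = 0.164). Its ages were at most 0.077 apart in a state.

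Among the remaining mitosis genes, only the dim gene Bub1 passed the threshold, in the fit without a signal filter. Aurka and Aurkb, the Aurora kinases, stood at 0.25 ± 0.25 and 0.58 ± 0.25, and Ccnb2, cyclin B2, at 0.51 ± 0.25. Bub1b, a spindle checkpoint kinase-like protein, stood at 0.92 ± 0.26 (adjusted p = 0.0676). Cdc20, an activator of the anaphase-promoting complex, stood at 0.12 ± 0.26. Of the 4 dim genes, Birc5, which encodes survivin of the chromosomal passenger complex, read 4.46 and 4.34, then 4.84 and 4.94, then 4.68 and 4.72, and stood at 0.49 ± 0.25 in the fit without a signal filter. Bub1, the other checkpoint kinase, read 3.64 and 3.68, then 4.82 and 4.93, then 3.88 and 3.94, with both vehicle arrays well above the other 4. It rose by 1.22 ± 0.24 in that fit (adjusted p = 0.0234) and was picked out after its values were seen. Cdc25c and Cenpf differed by 0.032 and 0.13.

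The replication genes were less uniform. The helicase subunit Mcm4 read 5.78 and 6.19 in quiescent, 7.44 and 7.29 in vehicle and 5.56 and 6.61 in PRI-724 cells, and rose by 1.38 ± 0.32 (2.60-fold; adjusted p = 0.0369, limma). Mcm5, from the same ring, read 5.52 and 6.00, then 6.84 and 6.55, then 5.71 and 6.16, and its difference of 0.94 ± 0.28 had an adjusted p of 0.0857. Mcm2 read 6.06 and 6.92, then 7.07 and 7.01, then 6.52 and 7.15, so that it was 1.01 higher with vehicle for young and 0.0885 for old cells (0.55 ± 0.30; adjusted p = 0.326). Mcm3 and Mcm6 stood at 0.37 ± 0.35 and 0.49 ± 0.39. Mcm7 stood at -0.45 ± 0.32, with -0.43 and -0.46 for young and old cells, and was the only subunit lower with vehicle at both ages. In the old pair 5 of the 6 subunits were higher as deposited, but only 3 after cyclic loess or quantile normalization.

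For nucleotide supply, Rrm2, the regulatory subunit of ribonucleotide reductase that is made in S phase, read 4.65 and 4.99, then 6.88 and 6.17, then 5.47 and 5.93. It rose by 1.71 ± 0.32 (3.26-fold; adjusted p = 0.0171, limma). Its partner Rrm1, the large subunit, stood at 1.16 ± 0.33 (adjusted p = 0.0727), Tyms, thymidylate synthase, at 0.51 ± 0.31, and Tk1, thymidine kinase, at 0.029 ± 0.27. Pcna, the sliding clamp of the replication fork, which also serves in DNA repair, read 9.53 and 9.58, then 9.43 and 8.87, then 9.40 and 9.23. It lay at the 96.8th percentile of all genes by its mean, and its difference of -0.40 ± 0.26 came mostly from the old pair (-0.71, beside -0.098 in the young pair). Of the genes for entry into S phase, the transcription factor E2f1 read 5.68 and 5.79, then 5.93 and 6.07, then 5.73 and 5.63 (0.27 ± 0.25, adjusted p = 0.568). Ccne1, cyclin E1, read 5.39 and 5.45, then 5.98 and 6.51, then 5.34 and 5.92, and its difference of 0.82 ± 0.26 had an adjusted p of 0.0945.

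**Figure D2:**
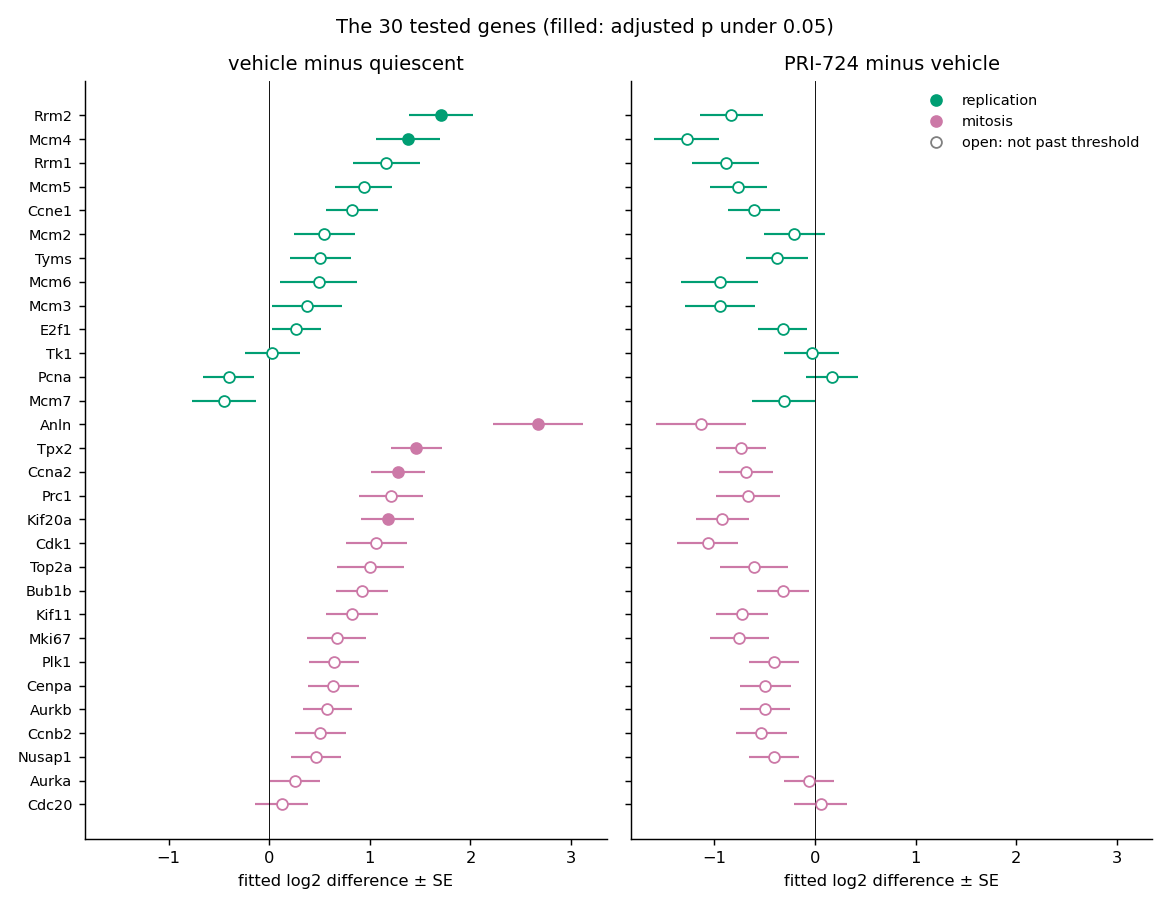
Fitted log2 difference with its standard error (x axis) for the 30 tested genes (y axis), for vehicle minus quiescent (left) and PRI-724 minus vehicle (right); green marks replication and pink mitosis genes, and filled points passed an adjusted p of 0.05. On the left 6 points are filled and 28 of the 30 lie above 0; on the right none is filled and 28 lie below 0.

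These calls depended on the arrays that entered the fit. Without the young or the old PRI-724 array, Anln and Tpx2 alone of the 30 passed, beside 484 and 489 of all 15526 genes. Leaving out a quiescent or vehicle array leaves 1 array in a compared state, so no count is read from such a fit. After cyclic loess Tpx2 alone passed, beside 482 of all 15526 genes, and after quantile normalization 0 of the 30 did, beside 331. At an unadjusted p under 0.05 (limma), 17 and 16 of the 30 were higher and 2 were lower under each. Of all genes, 3888 and 3589 then passed in either direction. The direction of the 6 genes did not turn under any of the alternatives run. Markers of activated stellate cells moved with these genes: the mean log2 signal of 8 of them was 6.28 and 7.06 on the quiescent, 9.06 and 9.44 on the vehicle and 6.87 and 8.99 on the PRI-724 arrays (young and old), and 5 of the 8 rose on activation. All 8 hepatocyte markers were lower on activation in both pairs and 3 of them fell. Of 10 endothelial markers 2 rose, of 12 macrophage markers 1 and of 5 mesothelial markers 1, beside 4.61% of all tested genes, and 0 fell. All 5 mesothelial markers were higher in both pairs. The part of these shifts in the result was not tested.

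Set against each other, the 2 groups had equal medians on activation in young cells and unequal ones in old cells on the deposited scale, but unequal ones at both ages under the other scalings. The median difference on activation was 0.74 log2 units for the 13 replication genes and 0.74 for the 21 mitosis genes in the young pair. In the old pair it was 0.24 and 0.68, where the median of all tested genes was 0.051. The mitosis genes were higher in 19 of 21 cases for young and in 21 of 21 for old cells, and the replication genes in 11 of 13 in each. Replication minus mitosis was thus -0.0065 for young and -0.44 for old cells. With the dim genes left out, or the mean in place of the median, the order in the old pair stayed the same, as it did after cyclic loess (-0.68), after quantile normalization (-0.69) and by percentile within an array (-13.1 percentile points). In the young pair these gave -0.34, -0.30 and -11.2 percentile points, so a contrast between the ages cannot be read from these medians. No test was made of this contrast, because genes are not replicates of a condition.

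**Figure D3:**
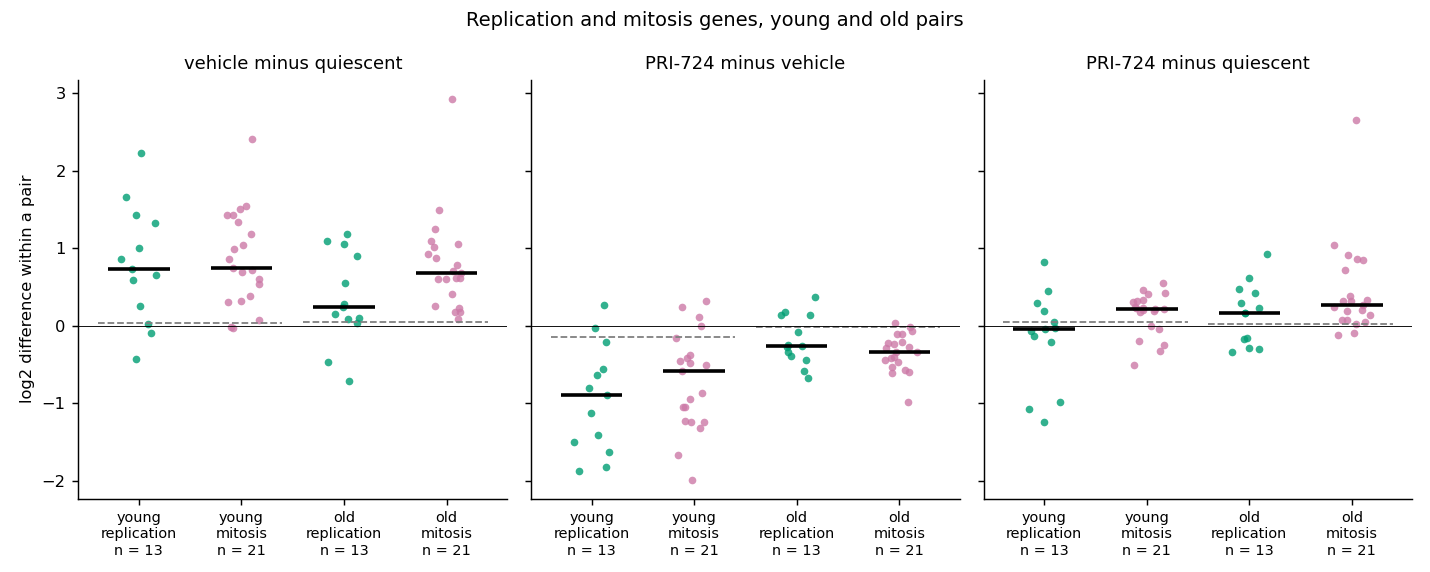
Log2 difference within the young and the old pair of arrays (y axis) for replication genes (green, 13) and mitosis genes (pink, 21) in the 3 comparisons of states; each point is 1 gene, thick bars are medians and dashed lines the median of all tested genes. In the middle panel the young medians are -0.89 and -0.58 and the old medians -0.26 and -0.33.

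Other genes of the cycle gave context; beside their counts, 4.61% of all tested genes rose on activation, 15.7% were higher at an unadjusted p under 0.05, and 8238 of 15526 differences were positive. Of 6 G1 cyclins and their kinases, 3 rose on activation (limma): Ccnd2 by 2.05 ± 0.31, Cdk6 by 1.93 ± 0.36 and Ccnd3 by 1.47 ± 0.31, while Ccnd1, cyclin D1, stood at 1.54 ± 0.60 (adjusted p = 0.169). Of 7 CDK inhibitors 1 rose, Cdkn2c (p18) by 1.03 ± 0.25. Of 15 factors of the Rb and E2F families, DREAM and MuvB, 0 passed in either direction and 2 were higher at an unadjusted p under 0.05 (limma), with E2f8 at 0.87 ± 0.31 and Rbl2 at 0.78 ± 0.29. Among 13 genes of origin licensing and firing, 11 were tested and 0 passed (1 at an unadjusted p under 0.05), and all 11 differences were positive, with Cdc6, the MCM loader, at 0.81 ± 0.27. Among 15 replication fork genes, 13 were tested, 0 passed (4 at an unadjusted p under 0.05) and all 13 were positive in both pairs. Prim1, the catalytic subunit of primase, stood at 1.02 ± 0.30 (adjusted p = 0.0786). Of 25 further mitosis genes 19 were tested and 2 rose, Ect2, the activator of RhoA at the furrow, by 1.70 ± 0.29 and Nuf2, a kinetochore protein, by 1.35 ± 0.27.

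Because many members were higher together with vehicle, the letters before their start sites were read for the elements named above. RefSeq (GRCm38.p6) gave 250 bases before the first listed start for 28 of the 34 genes. The first listed promoter of each of 27025 gene symbols in that table served as background, called all promoters here. Both strands were searched. The E2F letters TTTCCCGC, TTTGGCGC, TTTCGCGC or TTTGCCGC were in 3 of 12 replication genes (Mcm5, Mcm6 and Mcm7), in 1 of 16 mitosis genes (Cdk1) and in 1.91% of all promoters. The CHR letters TTTGAA or TTTAAA, the second of which reads the same on both strands, were in 4 of 12 replication and 10 of 16 mitosis genes and in 25.5% of all. CCAAT was in 8 of 12 and 13 of 16 beside 34.5% of all. The TCF letters CTTTGAT or CTTTGAA, which beta-catenin's DNA-binding partners read, were in 0 of 12 and 2 of 16 (Bub1b and Cdk1) beside 7.67% of all, and the Cdk1 match overlaps a CHR match. Of the 6 genes that rose, Anln held none of these letters and Rrm2 only a CCAAT, and the other 4 are not in the table. None of the replication genes with E2F letters passed the threshold on activation, and Mcm7 was lower with vehicle in both pairs. The stretches below likewise come from genes that did not pass. A match is a description of letters and not a binding site. The stretches below were picked after the values and letters were seen, to show the E2F letters in 2 helicase genes, the CHR and CCAAT letters in Mki67 and Cdk1, and the single CHR match of Birc5. Capitals mark E2F letters in the Mcm genes and CHR or CCAAT letters, on either strand, in the other 3. They lie at chr8:75109341-75109382 (plus strand), chr1:128359730-128359830 (minus), chr7:135716457-135716582 (minus), chr10:69352913-69353135 (minus) and chr11:117849002-117849037 (plus), and are written in the direction of the gene.
Mcm5: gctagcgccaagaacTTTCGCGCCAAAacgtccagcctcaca
Mcm6: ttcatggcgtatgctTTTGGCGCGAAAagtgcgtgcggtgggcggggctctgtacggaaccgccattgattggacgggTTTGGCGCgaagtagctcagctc
Mki67: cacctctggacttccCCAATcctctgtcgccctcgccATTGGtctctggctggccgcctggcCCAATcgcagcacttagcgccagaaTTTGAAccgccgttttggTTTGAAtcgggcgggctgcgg
Cdk1: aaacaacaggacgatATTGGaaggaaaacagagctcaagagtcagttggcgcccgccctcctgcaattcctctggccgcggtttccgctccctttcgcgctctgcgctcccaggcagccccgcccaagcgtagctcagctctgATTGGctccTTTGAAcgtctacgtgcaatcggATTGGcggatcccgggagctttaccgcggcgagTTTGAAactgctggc
Birc5: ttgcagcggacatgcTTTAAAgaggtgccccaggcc
In Mcm5 and Mcm6 a pair of E2F matches on opposite strands overlaps, and Mcm6 holds a further match nearer the start. Mki67 and Cdk1 each hold 3 CCAAT and 2 CHR matches.

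With PRI-724, 0 of the 30 tested genes passed the threshold against vehicle in either direction (limma), where 0.271% of all tested genes were called higher and 1.93% lower. The differences nevertheless ran mostly one way. At an unadjusted p under 0.05, 14 of 30 were lower, 7 of each group, beside 11.1% of all genes, and 0 were higher beside 4.34%. Of the 34 measured genes, 25 were lower in both pairs, beside 35% of all tested genes. A loss of at least 2-fold was seen for 14 of 30 genes in the young pair, where 12.3% of all genes lost as much. In the old pair 0 of 30 did, beside 2.84%. This comparison shares its vehicle arrays with the previous one, so the 2 are not independent. With the 4 compared arrays alone, Anln, Cdk1 and Mcm4 passed as lower (limma), where 965 of all 15526 genes were called in either direction. Leaving out any vehicle or PRI-724 array leaves 1 array in a compared state, so no count is read from such a fit. By size, the median difference of the 34 measured genes was -0.84 for young cells, with 30 genes lower. For old cells it was -0.28, with 29 lower. All tested genes had medians of -0.14 and -0.010. The direction was thus shared, but the larger part of the fall behind the 14 genes came from the young arrays.

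Of the helicase, Mcm4 had the largest difference of the 30 tested genes. It stood at -1.28 ± 0.32 (SE, n = 2 pairs; adjusted p = 0.0825, limma), with -1.88 for young and -0.68 for old cells. Mcm6, which read 6.57 and 6.60 in quiescent, 7.31 and 6.84 in vehicle and 5.49 and 6.76 in PRI-724 cells, stood at -0.95 ± 0.39. Nearly all of it came from the young pair, at -1.82 beside -0.079. Mcm3 read 7.20 and 7.09, then 7.85 and 7.19, then 6.22 and 6.93, and stood at -0.95 ± 0.35, with -1.63 and -0.26. Mcm5 stood at -0.76 ± 0.28, Mcm7 at -0.31 ± 0.32 and Mcm2 at -0.20 ± 0.30. All 6 subunits were lower with PRI-724 in the young pair, under all 3 scalings. In the old pair Mcm2 and Mcm7 were higher by 0.14 and 0.18 and the other 4 lower. For nucleotide supply, Rrm1 stood at -0.89 ± 0.33 and Rrm2 at -0.83 ± 0.32, with -1.50 and -1.42 for young and -0.28 and -0.25 for old cells. Pcna stood at 0.17 ± 0.26, and Tk1 at -0.032 ± 0.27. Ccne1 stood at -0.61 ± 0.26 and was of like size in both pairs (-0.63 and -0.59), and E2f1 at -0.32 ± 0.25.

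Of the mitosis genes, Anln stood at -1.13 ± 0.45 (adjusted p = 0.263, limma), with -1.99 for young and -0.28 for old cells. Cdk1 stood at -1.07 ± 0.31 (adjusted p = 0.123) and Kif20a at -0.92 ± 0.26 (adjusted p = 0.118). Mki67 stood at -0.75 ± 0.30, Tpx2 at -0.73 ± 0.25, Ccna2 at -0.69 ± 0.27 and Top2a at -0.61 ± 0.34. Top2a was lower by 1.25 in the young pair only, and Prc1 likewise, at -1.32 beside -0.017. Other mitosis genes had young and old differences of like size. These were Plk1 at -0.38 and -0.44, Aurkb at -0.58 and -0.41, Ccnb2 at -0.50 and -0.57, Cenpa, the centromeric histone, at -0.46 and -0.53, and the dim gene Bub1 at -0.94 and -0.99 (adjusted p = 0.0941 in the fit without a filter). Cdc20 at 0.056 ± 0.26 and Aurka at -0.057 ± 0.25 differed least among the tested ones, and Birc5 stood at -0.19 ± 0.25.

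**Figure D4:**
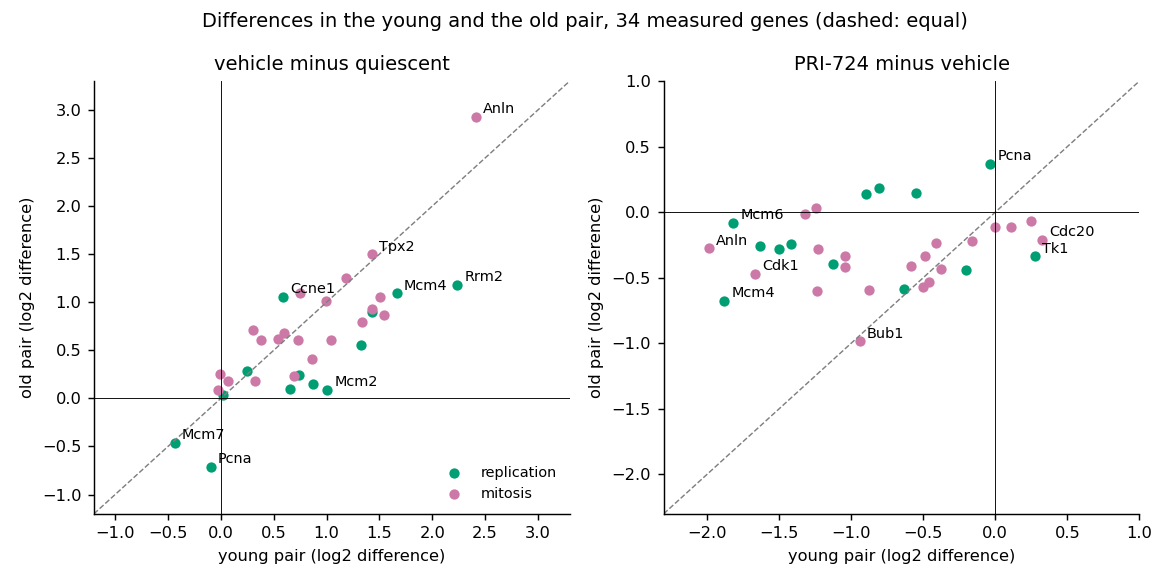
Log2 difference in the old pair (y axis) against that in the young pair (x axis) for the 34 measured genes (green replication, pink mitosis; the dashed line marks equal differences), for vehicle minus quiescent (left) and PRI-724 minus vehicle (right). On the right most points lie above the dashed line: 23 of 34 genes were lower, or less high, in the young pair than in the old, as were 9406 of all 15526 tested genes.

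The median PRI-724 minus vehicle difference was -0.89 for replication and -0.58 for mitosis genes in the young pair, and -0.26 and -0.33 in the old pair, where all tested genes had medians of -0.14 and -0.010. Replication minus mitosis was -0.31 in the young pair, but 0.20 after cyclic loess, 0.044 after quantile normalization and -0.022 with the dim genes left out, so no order of the groups can be read from it. The young PRI-724 array that carries the larger differences is the array with the narrow signal range. Macrophage and endothelial markers also moved with PRI-724: 10 of 12 and 10 of 10 fell (limma), with median differences of -2.65 and -3.41 for young and -2.28 and -2.34 for old cells. Their part in the differences of the cell cycle genes was not tested. Among activated stellate cell markers 1 of 8 fell, with medians of -2.52 and -0.55. Among the 11 stellate cell markers 1, Lrat, fell, with medians of -0.57 and -0.19. In the lists of G1 cyclins and kinases, CDK inhibitors, Rb and E2F factors, origin genes, fork genes and further mitosis genes, 0 passed the threshold in either direction, and 4 of 6, 1 of 7, 1 of 15, 1 of 11, 0 of 13 and 6 of 19 tested genes were lower at an unadjusted p under 0.05, beside 11.1% of all. Ccnd1 stood at -1.48 ± 0.60, Orc6, a subunit of the origin recognition complex, at -1.01 ± 0.29 and Nuf2 at -1.03 ± 0.27 (adjusted p = 0.0979).

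**Figure D5:**
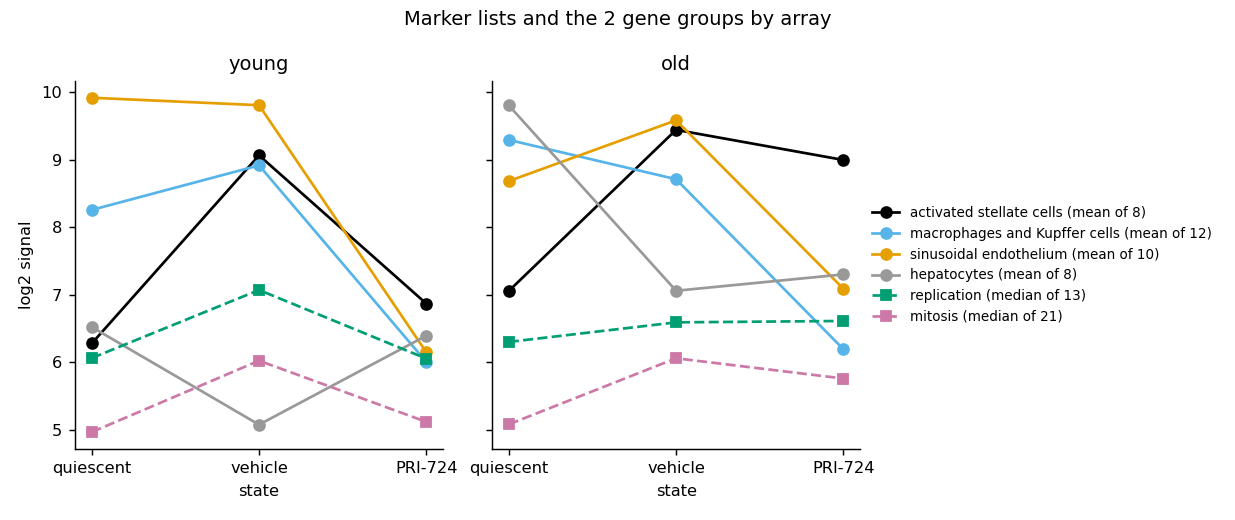
Mean log2 signal (y axis) of 4 marker lists and median log2 signal of the replication and mitosis genes (dashed) by state (x axis) in young (left) and old (right) cells, 1 array per point. Heights of different lists come from different probes and are not comparable; the macrophage and endothelial lists are lowest with PRI-724 at both ages, and the replication and mitosis medians peak with vehicle in young cells.

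Set against quiescent cells, PRI-724 cells had 0 of 30 genes past the threshold (limma), where 1.28% of all tested genes were called higher and 2.43% lower. At an unadjusted p under 0.05, 4 genes were higher (Anln, Rrm2, Tpx2 and Bub1b) beside 8.22% of all, and Mcm7 was lower beside 8.06%. These shares are near the background. In young cells 14 of 30 genes were at or below the quiescent level, as 46.4% of all genes were. In old cells 7 of 30 were, beside 47.7%. The median difference of the replication genes was -0.043 for young and 0.16 for old cells, and that of the mitosis genes 0.22 and 0.27. Rrm2 stood at 0.88 ± 0.32 (adjusted p = 0.193), with 0.82 and 0.93. Tpx2 stood at 0.73 ± 0.25 (adjusted p = 0.162), with 0.55 and 0.91. Anln stood at 1.54 ± 0.45 (adjusted p = 0.1, limma), with 0.43 and 2.65. It passed when the 4 compared arrays were fitted alone, where 1064 of all 15526 genes were called in either direction. Mcm3, Mcm6 and Mcm7 read lower with PRI-724 than in quiescent cells of the young pair, by -0.98, -1.08 and -1.24, and by -0.17, 0.16 and -0.28 in the old pair. By their place among all genes of an array, the median of the 34 genes was at the 49.3rd and 49.2nd percentile in young and old quiescent cells, the 61.3rd in vehicle cells of either age, and the 46.8th and 57.7th in young and old PRI-724 cells.

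Between the ages, 0 of 30 genes passed over the 3 states (limma), where 0.264% of all tested genes were called higher in old cells and 0.251% lower. At an unadjusted p under 0.05, Anln alone was higher in old cells, beside 7.16% of all genes, at 0.90 ± 0.37 (adjusted p = 0.427), and 0 were lower beside 3.24%. Anln passed with the 4 activated arrays alone, where 216 of all 15526 genes were called in either direction. Its old minus young difference was -0.012 in quiescent, 0.50 in vehicle and 2.21 in PRI-724 cells. The helicase changed sides with the state. All 6 subunits were lower in old than in young vehicle cells, at -0.66 to -0.063 log2 units (old minus young), and all 6 were higher in old than in young PRI-724 cells, at 0.44 to 1.27. Both held under all 3 scalings, where quantile normalization gave a lowest value of 0.26 for the PRI-724 arrays. Of all 15526 tested genes, 7647 were lower in old vehicle cells and 9426 higher in old PRI-724 cells. The switch was not particular to the helicase. Of 15 Rb, E2F, DREAM and MuvB factors, 13 were lower in old vehicle cells and 15 higher in old PRI-724 cells. The young PRI-724 array is the one with the narrow signal range. In quiescent cells the subunits had no common direction, from -0.24 for Mcm7 to 0.85 for Mcm2. The median old minus young difference of the replication genes was 0.10 in quiescent, -0.29 in vehicle and 0.57 in PRI-724 cells, and that of the mitosis genes 0.016, -0.065 and 0.21. With 1 array in each group, whether the ages differ in response was not tested, and age and pool cannot be told apart.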

How the data were processed

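RNA was measured on 6 Affymetrix arrays. Extraction used RNeasy and labelling the GeneChip WT PLUS reagents, per the labels' protocols. The deposited log2 signals came, per the submitters' processing notes, from RMA in Affymetrix Expression Console, whose version was not given in the sources used here. Of 41345 probe sets, 23521 carry 1 symbol in the platform table and were used; 1814 with several symbols and 16010 without any were not.

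Differences were fitted on the deposited log2 values with limma 3.58.1 (R 4.3.3) on an additive model of age and state, with eBayes moderation along an intensity trend (2 residual and 7.76 prior degrees of freedom). Benjamini-Hochberg adjustment ran over the 15526 genes of each comparison, and an adjusted p under 0.05 was called. The fit was tested on simulated data with errors drawn independently for each gene and array. That simulation held no shift of a whole array, so it does not bear on the narrow signal range of the young PRI-724 array. All 6 arrays entered the main fit. The labels carry no replicate numbers and no batch. Where nothing says that samples came from separate cultures, p-values measure only the spread between these samples. The number of arrays limits the precision.

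Genes given with all 6 values were those past the threshold and a list of 13; Bub1, Mcm3 and Mcm6, and members given by their difference beyond the largest and smallest of a group, were added after their values were seen. The members and lists were chosen with earlier results of these data known. The alternatives, 15 for each test, covered the signal filter, probe sets, variance trend, model, arrays, scaling, and the call. Promoter sequences came from RefSeq GRCm38.p6. Python 3.11.15 with pandas 2.3.3 and matplotlib 3.10.9 made the plots.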

Additional observations from a re-analysis of the deposited data

Results flagged for a closer look

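Some cell cycle genes moved in opposite directions by at least 0.2 log2 units in the young and the old pair. The difference between the ages was not tested. Against quiescent cells the pairs had the same sign for 19 of 34 measured genes, near the 8642 of all 15526 tested genes. Against vehicle they had the same sign for 25 of 34, beside 9444 of 15526. Against vehicle, Tk1 was higher by 0.27 with PRI-724 in the young pair and stood at -0.34 in the old pair, and Cdc20 stood at 0.32 and -0.21. Against quiescent cells, Mcm4 was at -0.22 for young and 0.42 for old cells, Mki67 at -0.50 and 0.33, Top2a at -0.25 and 1.04, and Cdk1 at -0.33 and 0.32. In these 4 genes young PRI-724 cells were below and old PRI-724 cells above the quiescent level of their age. Tk1 went the other way, at 0.29 and -0.30. Each value rests on 2 arrays, and the young PRI-724 array is the one with the narrow signal range.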

How the results depend on the processing

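With 1 array in each group the precision is limited by the number of arrays, and dim genes such as Bub1 and Birc5 were called only without the signal filter or not at all. The labels carry no replicate numbers, so no replicate block was fitted; the reported fit pairs the states by age. Removing the filter, raising it to 50%, averaging probe sets or dropping the intensity trend kept every count of calls within 1.5 times the reported one, and the cause of the changes below was not tested.

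On activation, 911 genes and 6 members were called. The counts were 114 and 1 without age in the model, 481 and 2 with only the arrays compared, 482 and 1 after cyclic loess, 331 and 0 after quantile normalization, 3484 and 18 by unadjusted p, and 318 to 1230 and 1 to 11 with each array left out in turn. Tpx2 kept its call in 12 of 14 alternatives, Anln in 11 of 14, Ccna2 in 6 of 14, Rrm2 in 6 of 13, Mcm4 in 5 of 14 and Kif20a in 4 of 13. The alternatives in these tallies include fits with 1 array in a compared state. For PRI-724 against vehicle, 341 genes and 0 members were called. The counts of genes were 91 without age, 965 with only the arrays compared, 103 after cyclic loess and 84 after quantile normalization. They were 2404 by unadjusted p, and 968 and 955 without the young and the old quiescent array. Members called were 3 with only the arrays compared, 14 by unadjusted p, and 3 each without the young and without the old quiescent array. For PRI-724 against quiescent, 577 genes were called. The counts were 217 without age, 1064 with only the arrays compared and 2528 by unadjusted p, with 1 member and 5 members in the last 2. Without the young and the old vehicle array they were 1053 and 1039, with 1 member each. For age, 80 genes were called, and 0 without state in the model, 216 in the activated arrays alone, 7 after cyclic loess, 12 after quantile normalization, 1615 by unadjusted p and 0 to 343 with each array left out, with 1 member in the activated arrays, 1 by unadjusted p and 0 to 1 with arrays left out.

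Replication minus mitosis on activation in the young pair went from -0.0065 to -0.34 after cyclic loess, and to 0.15 without genes that span phases. For PRI-724 against vehicle in the young pair it went from -0.31 to -0.64 without genes that span phases, -0.022 with only genes past the filter, 0.044 after quantile normalization, 0.20 after cyclic loess and 2.70 percentile points on the scale of percentiles within an array. For PRI-724 against quiescent it went from -0.26 to -0.062 (quantile) and -0.022 (loess) in the young pair, and from -0.10 to -0.29 (mean), -0.27 (quantile) and -0.27 (loess) in the old pair.

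Single genes turned direction only where their reported value was not called. Mcm2 with PRI-724 against vehicle was 0.016 after cyclic loess and 0.055 after quantile normalization, and -0.61 to 0.20 with arrays left out. In the same comparison Pcna ranged from -0.0875 to 0.42 and Top2a from -1.25 to 0.035 with arrays left out. Against quiescent, Mcm4 was -0.067 after quantile normalization and -0.36 to 0.56 with arrays left out, Mcm5 -0.025 to 0.38, E2f1 -0.16 to 0.053, Ccne1 -0.031 to 0.46, Mki67 -0.53 to 0.36, Top2a -0.25 to 1.04 and Cdk1 -0.46 to 0.46. For age, Rrm2 was -0.13 and Tpx2 0.063 in the activated arrays, Plk1 was -0.030 after cyclic loess and -0.035 after quantile normalization, and Tpx2 was 0.019 after the latter. With arrays left out, Rrm2 ranged from -0.18 to 0.40, Mki67 from -0.065 to 0.41, Top2a from -0.26 to 0.385, Ccna2 from -0.27 to 0.081 and Tpx2 from -0.115 to 0.063.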

Other observations

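Some members are also named on probe sets to which the platform gives a further symbol, and these entered no comparison. The probe set of Ccne2 and Ints8 read 5.34 and 4.89 in young and old quiescent cells, 5.89 and 5.37 with vehicle and 4.29 and 4.69 with PRI-724. A probe set shared by Top2a and Taf1d, a subunit of the RNA polymerase I selectivity factor, read 8.59 and 8.53, then 9.86 and 9.70, then 7.26 and 8.21, and which of these genes it reports is not known. Its vehicle arrays were the highest and its PRI-724 arrays the lowest at both ages, whereas the probe set of Top2a alone was level with vehicle in old PRI-724 cells. A second probe set of Top2a and Taf1d read 9.19 and 9.11, then 10.14 and 10.08, then 7.98 and 8.79.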
